A study of Mus musculus with 4 samples.

Results

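The genes described here are 43 genes of the cell cycle, chosen by name from what their proteins do in DNA replication and cell division, among 14718 gene symbols in the deposited table of spinal cord RNA-seq. Symbols are written in capitals, as in that table. All 43 were listed at 7 days post injury (dpi), where the table holds 14125 genes, and 25 of them were listed at 21 dpi, where it holds 11472. By role, 9 act in replication licensing and at the fork, 3 in deoxynucleotide synthesis and 1 as the transcription factor of S phase entry, and 9 are cyclins, CDK1 and mitotic kinases. A further 7 are proteins of chromosome structure, the kinetochore and the passenger complex, and 9 are spindle motors and microtubule proteins. Another 2 act in cytokinesis and 3 in ubiquitin-dependent control of mitosis, a role labelled mitotic exit in the figures.

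The study compared mice that carry the human ApoE3 or ApoE4 isoform after an incomplete spinal cord injury. The 4 groups were male human ApoE3 targeted replacement mice at 7 dpi, male human ApoE4 targeted replacement mice at 7 dpi, and the same genotypes at 21 dpi. In targeted replacement mice the human isoform is made from the mouse Apoe locus in place of the mouse protein, and every mouse of these 4 groups had a thoracic contusion of 50 kdyne at 3 to 5 months of age. RNA came from lesion segments of about 4 mm from N = 3 mice per group, but 1 value per gene and group was deposited, so no difference has a replicate check and no error or p-value is given. Uninjured mice were not analysed here.

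Cells that divide pass in order through G1, S phase, G2 and mitosis. E2F factors switch on the genes of DNA replication at the end of G1. The repressive DREAM complex and the activators B-MYB and FOXM1 time the genes of G2 and mitosis. The mRNAs of a phase thus rise and fall together in cycling cells and are low in resting ones. An adult spinal cord has few dividing cells, chiefly oligodendrocyte precursors, and after a contusion microglia, astrocytes, ependymal cells, precursors, endothelial cells and perivascular fibroblasts divide, while monocytes enter from the blood.

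Values are FPKM, fragment numbers divided by the length of the transcript and by the total of the library, so levels of different genes can be compared. Each ratio is a log2 ratio of FPKM plus 1, which understates differences of genes with low values, and a gene was called higher or lower where the ratio was at least 1.3-fold. A ratio of genotypes above 0 means a higher value in ApoE4. The reading used follows the name of the comparison in each row, which puts ApoE3 first, and the deposited fold change, which divides the first value by the second. The table allows a second reading, since its column numbers would pair the values with the opposite genotypes, and under it every direction between genotypes would turn. At 21 dpi the paper describes more genes with higher expression in ApoE4 than in ApoE3. The reading used gives that direction, with 58.9% of all genes at least 1.3-fold higher in ApoE4 at 21 dpi and 2.01% lower. The rules are unlike, since the paper's genes also passed a limit on the false discovery rate and these shares use the fold alone. With the median of all genes subtracted, the shares were 8.06% and 7.46%. The 2 time points were normalized separately, so a ratio of 21 to 7 dpi is set across separately scaled values. The all-gene median, taken over the log2 ratios of all genes that average 1 FPKM or more, was -0.0018 for ApoE4 against ApoE3 at 7 dpi and 0.42 at 21 dpi. It was 0.09 for 21 against 7 dpi in ApoE3 and 0.53 in ApoE4. Where a ratio is given relative to this median, the median was subtracted.

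Of 3 promoter motifs searched, the cell cycle homology region and the E2F site differed in share between mitotic members and members that act in S phase, and CCAAT was frequent in both. Promoters of 250 bases before to 50 bases after the gene's start were held by the RefSeq table (GRCm38.p6) for 37 of the 43 members, with no entry for MCM4, GINS2, CCNA2, AURKB, KIF20A and TPX2. The cell cycle homology region, the element through which DREAM acts on genes of G2 and mitosis, was searched as TTTGAA or TTCGAA on both strands. It was matched in 22 of 26 mitotic members (84.6%), in 2 of 11 S phase members (18.2%) and in 21.7% of all 27025 genes with a promoter. CCAAT, bound by the factor NF-Y, was matched in 22 of 26 mitotic members (84.6%), in 8 of 11 S phase members (72.7%) and in 41.1% of all genes. An E2F site, searched as TTTCCCGC, TTTGGCGC, TTTCGCGC or TTTGGCGG, was matched in 1 of 26 mitotic members (3.85%), in 5 of 11 S phase members (45.5%) and in 2.70% of all genes. Matches of the homology region and CCAAT in the same promoter were found in 20 of 26 mitotic members, 2 of 11 S phase members and 9.65% of all genes. The match of the homology region nearest to the start began between -98 and 40 bases from it in the 22 mitotic members, and within 60 bases of it in 21. The mitotic members without the homology region in this window were CCNB1, CENPE, BIRC5 and NUSAP1. A match is a description of letters and not a site in use.

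**Figure D1:**
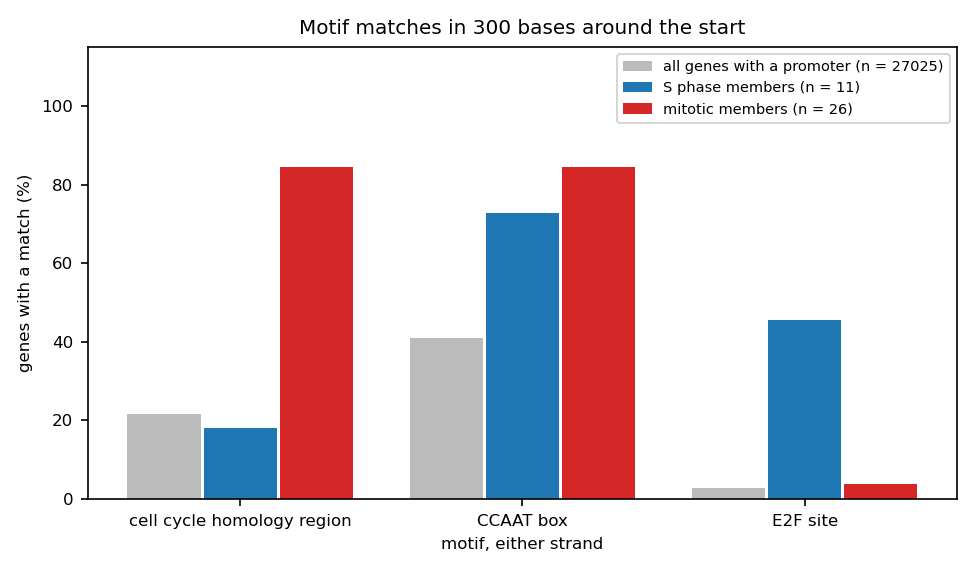
Share of genes (%, vertical axis) with a match of each motif on either strand in the 300 bases around the start, for all 27025 genes with a promoter (grey), 11 S phase members (blue) and 26 mitotic members (red). The homology region stands at 84.6% in the mitotic members and 18.2% in the S phase members, the E2F site at 3.85% and 45.5%.

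The promoters printed here are those of CDK1, TOP2A, PRC1 and KIF23, with large ratios in the results, of ANLN, which stood apart from the other members, and of MCM6, which holds the most E2F matches of any member. All are from RefSeq GRCm38.p6, written 5′ to 3′ on the gene's strand, with every match of the 3 motifs in capitals. CDK1 (chr10:69352863-69353162, minus strand) holds 2 matches of the homology region, at -71 and -15 from the start, 3 of CCAAT and 1 of the E2F site, and is the mitotic member with an E2F match. TOP2A (chr11:99024140-99024439, minus strand) holds 4 matches of the homology region and 6 of CCAAT. PRC1 (chr7:80294301-80294500, plus strand), from -150, and KIF23 (chr9:61946750-61946949, minus strand), from -150, each hold 1 match of the homology region, at -5 and 2, and 1 of CCAAT. ANLN (chr9:22389157-22389306, minus strand), from -100, holds 2 matches of the homology region and none of CCAAT. MCM6 (chr1:128359656-128359875, minus strand), from -170, holds 3 E2F matches, of which those at -110 and -106 overlap, and 2 of CCAAT, and none of the homology region.
CDK1: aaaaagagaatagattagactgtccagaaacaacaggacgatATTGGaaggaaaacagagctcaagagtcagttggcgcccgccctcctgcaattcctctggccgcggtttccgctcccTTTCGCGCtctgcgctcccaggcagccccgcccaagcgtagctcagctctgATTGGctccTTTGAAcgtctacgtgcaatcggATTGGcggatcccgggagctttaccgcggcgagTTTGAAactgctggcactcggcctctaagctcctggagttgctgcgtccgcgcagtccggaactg
TOP2A: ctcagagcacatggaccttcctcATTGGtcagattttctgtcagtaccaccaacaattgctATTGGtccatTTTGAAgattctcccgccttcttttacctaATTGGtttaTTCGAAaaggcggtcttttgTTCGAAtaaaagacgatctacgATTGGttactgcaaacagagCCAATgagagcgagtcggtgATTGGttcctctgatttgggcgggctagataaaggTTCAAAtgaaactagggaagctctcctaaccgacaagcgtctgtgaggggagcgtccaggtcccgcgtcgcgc
PRC1: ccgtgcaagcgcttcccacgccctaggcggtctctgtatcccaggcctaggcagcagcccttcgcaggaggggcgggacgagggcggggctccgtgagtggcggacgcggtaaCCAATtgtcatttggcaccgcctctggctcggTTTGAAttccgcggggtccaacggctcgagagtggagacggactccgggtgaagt
KIF23: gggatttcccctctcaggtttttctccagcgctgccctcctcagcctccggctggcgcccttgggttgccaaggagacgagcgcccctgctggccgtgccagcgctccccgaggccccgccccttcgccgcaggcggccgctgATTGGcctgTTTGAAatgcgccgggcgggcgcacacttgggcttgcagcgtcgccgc
ANLN: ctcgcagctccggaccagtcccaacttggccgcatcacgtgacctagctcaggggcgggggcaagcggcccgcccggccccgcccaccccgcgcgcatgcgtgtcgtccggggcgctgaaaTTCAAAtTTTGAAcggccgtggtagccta
MCM6: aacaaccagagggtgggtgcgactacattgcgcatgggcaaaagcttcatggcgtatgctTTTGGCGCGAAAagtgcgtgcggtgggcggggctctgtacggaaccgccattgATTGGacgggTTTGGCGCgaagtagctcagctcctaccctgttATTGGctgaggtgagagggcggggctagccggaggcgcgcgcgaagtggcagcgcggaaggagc

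At 7 dpi cell cycle mRNA was higher in ApoE4 than in ApoE3 across nearly the whole set. Of 43 members, 42 had a higher FPKM in ApoE4, compared to 49.6% of all listed genes, and ANLN was the exception. The 1.3-fold rule was passed by 17 members in the direction of ApoE4, compared to 4.76% of all genes, and by 0 members in the direction of ApoE3, compared to 3.78% of all genes. The median log2 ratio of the members was 0.29, and that of all listed genes was -0.0020. These segments are bulk tissue, so fewer cells of a type and less RNA per cell cannot be told apart.

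**Figure D2:**
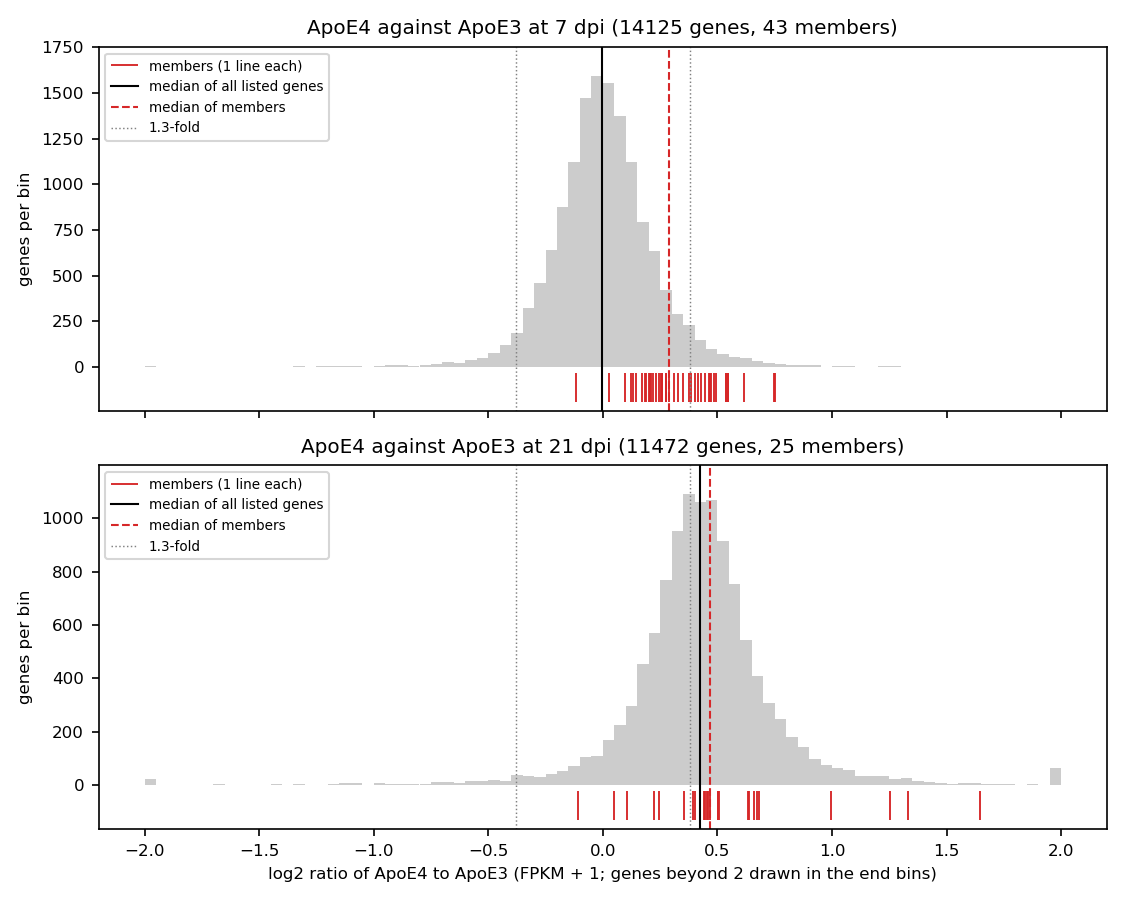
Log2 ratio of ApoE4 to ApoE3 (horizontal axis, FPKM plus 1) of all listed genes as a histogram (genes per bin) at 7 dpi (top) and 21 dpi (bottom), with 1 red line per member below it. The members' median is 0.29 at 7 dpi, where all genes center near 0, and 0.47 at 21 dpi, where all genes center at 0.42.

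Among the replication genes, the helicase subunits MCM3 and MCM5 and their loader were higher in ApoE4 at 7 dpi. MCM3 had at 7 dpi 24.0 FPKM in ApoE3 and 33.0 in ApoE4, then 9.44 in ApoE3 and 15.5 in ApoE4 at 21 dpi. MCM5 had 10.2 and 15.3 FPKM at 7 dpi and 2.82 and 4.92 at 21 dpi, again with ApoE3 before ApoE4, the order kept for every gene from here on. CDT1, which loads the MCM helicase at origins, had 3.75 and 5.93 FPKM at 7 dpi and 2.01 and 3.26 at 21 dpi. Their log2 ratios of genotypes at 7 dpi were 0.44, 0.55 and 0.54. The other helicase subunits were closer between genotypes. MCM6 had 25.5 and 31.9 FPKM at 7 dpi and 7.66 and 12.5 at 21 dpi, MCM4 had 8.02 and 8.97 and later 5.02 and 7.16, and MCM7, the most abundant of them, had 48.9 and 53.6 at 7 dpi and was not listed at 21 dpi. PCNA, the sliding clamp of the replicative polymerases, had 55.2 and 60.2 FPKM at 7 dpi and 33.2 and 47.5 at 21 dpi. All 9 members of this role were higher by some amount in ApoE4 at 7 dpi, 3 of them by at least 1.3-fold, with a median log2 ratio of 0.29.

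Of the enzymes that make deoxynucleotides, thymidylate synthase differed most between genotypes at 7 dpi. TYMS had 51.5 and 71.7 FPKM at 7 dpi and 25.0 and 32.2 at 21 dpi, with a log2 ratio of genotypes of 0.47 at 7 dpi. RRM1, the large subunit of ribonucleotide reductase that persists outside S phase, had 13.6 and 15.6 FPKM at 7 dpi and 10.7 and 15.04 at 21 dpi. RRM2, the small subunit that is limited to S phase, had 5.66 and 6.94 FPKM at 7 dpi and 0.921 and 2.07 at 21 dpi. Over time RRM2 was called lower in both genotypes on every scale, and RRM1 in neither as deposited but in both relative to the all-gene median or rescaled to an equal sum. E2F1, the factor that opens S phase, had 11.8 and 14.3 FPKM at 7 dpi, a log2 ratio of 0.26, and was not listed at 21 dpi.

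Among the cyclins and mitotic kinases, AURKB had the largest ratio at 7 dpi. CENPF, of another role, had nearly the same ratio. On plain FPKM, without the 1 added, CENPF was 1.84-fold and AURKB 1.78-fold higher in ApoE4. AURKB, the kinase of the chromosomal passenger complex, had 7.39 and 13.1 FPKM at 7 dpi and 2.13 and 2.36 at 21 dpi, with log2 ratios of genotypes of 0.75 and 0.10. CDK1, the kinase that drives entry into mitosis, had 16.5 and 23.6 FPKM at 7 dpi and 1.94 and 4.86 at 21 dpi, with log2 ratios of 0.49 and 0.996. BUB1, a spindle checkpoint kinase, had 6.05 and 8.88 FPKM at 7 dpi and was not listed at 21 dpi. The partners of CDK1 and the other kinases lay below the 1.3-fold line at 7 dpi. CCNB1, cyclin B1, had 4.88 and 6.37 FPKM at 7 dpi, a log2 ratio of 0.33, with no listing at 21 dpi, and AURKA, the kinase of the spindle poles, had 10.6 and 13.0 and later 3.15 and 5.66. PLK1, a kinase of the centrosome and kinetochore, had a log2 ratio of 0.38 that fell just short of the rule, and UBE2C, with 0.39, was just inside it and dropped out when the values were rescaled to an equal sum.

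Chromosome and kinetochore genes had the highest median of any role at 7 dpi, a log2 ratio of 0.46 over 7 members, of which 4 passed the rule. TOP2A, which untangles replicated DNA, had 59.7 and 92.1 FPKM at 7 dpi and 6.76 and 9.65 at 21 dpi. CENPF, a large kinetochore protein, had 4.26 and 7.83 FPKM at 7 dpi, and CENPE, the kinetochore motor, had 2.41 and 3.95, and neither was listed at 21 dpi. BIRC5, known as survivin and a subunit of the passenger complex, had 20.4 and 28.4 FPKM at 7 dpi and 5.37 and 15.04 at 21 dpi. The log2 ratios at 7 dpi were 0.62 for TOP2A, 0.75 for CENPF, 0.54 for CENPE and 0.46 for BIRC5. MKI67, the antigen by which dividing cells are commonly stained, had 29.6 and 36.0 FPKM at 7 dpi, a log2 ratio of 0.27 that did not reach 1.3-fold, and was not listed at 21 dpi. CDCA8, borealin of the passenger complex, had 6.03 and 7.96 FPKM at 7 dpi and 0.789 and 1.36 at 21 dpi.

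Spindle genes followed with a median of 0.40 over 9 members, of which 5 passed the rule at 7 dpi. KIF23, a motor of the central spindle, had 41.8 and 61.1 FPKM at 7 dpi and 5.58 and 14.7 at 21 dpi. KIF4, a chromosome-bound motor, had 3.91 and 5.55 FPKM at 7 dpi, and NUSAP1, which bundles spindle microtubules, had 5.69 and 8.29. HMMR, a spindle protein that also binds hyaluronan, had 9.79 and 13.5 FPKM at 7 dpi, and CKAP2L, a spindle pole protein, had 10.8 and 14.6. These 4 genes were not listed at 21 dpi. PRC1, which cross-links the microtubules of the central spindle, was among the most abundant members at 7 dpi with 79.8 and 92.1 FPKM, a log2 ratio of 0.20, and had 6.14 and 21.4 at 21 dpi.

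Cytokinesis and ubiquitin-dependent control of mitosis held the lowest medians between genotypes at 7 dpi, 0.07 over 2 members and 0.23 over 3. RACGAP1, which forms the centralspindlin complex with KIF23, had 77.8 and 93.3 FPKM at 7 dpi and 41.2 and 56.5 at 21 dpi. ANLN, anillin of the contractile ring, had the highest level of any member, with 184 and 169.7 FPKM at 7 dpi and 181 and 239 at 21 dpi. Anillin is known to be made also by myelinating oligodendrocytes, where it scaffolds septins. UBE2C, the ubiquitin-conjugating enzyme of the anaphase-promoting complex, had 4.18 and 5.76 FPKM at 7 dpi and was not listed at 21 dpi. CDC20, the activator of that complex, had 6.62 and 7.58 FPKM at 7 dpi and 1.02 and 1.80 at 21 dpi, and CDCA3, an adaptor for the destruction of WEE1, had 14.4 and 17.1 and later 2.14 and 3.45. Of these 5 genes UBE2C alone passed the rule at 7 dpi. The 10 members outside the rule by which values were given in every group, which are MCM2, GINS2, CCNA2, CCNB2, PLK1, BUB1B, NDC80, KIF11, KIF20A and TPX2, ranged at 7 dpi from 1.85 to 26.7 FPKM in ApoE3 and from 2.25 to 31.2 in ApoE4, with log2 ratios from 0.03 for BUB1B to 0.38 for PLK1.

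**Figure D3:**
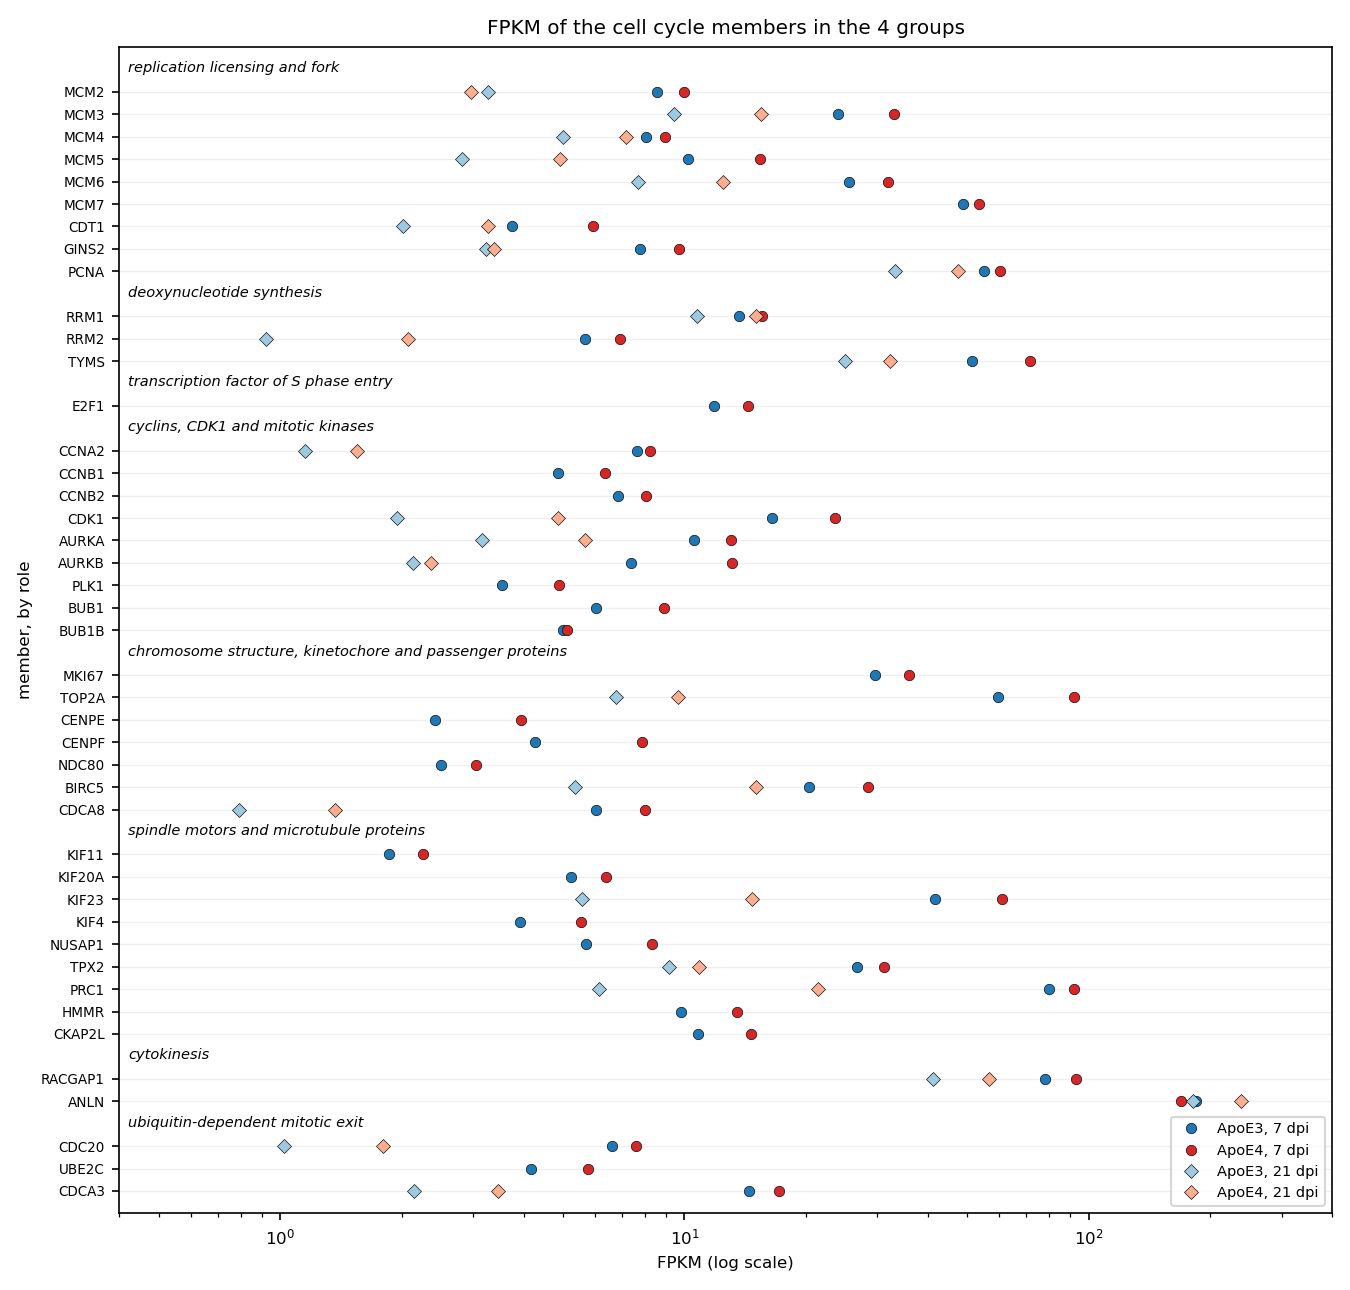
FPKM (log scale, horizontal axis) of each of the 43 members by role in ApoE3 (blue) and ApoE4 (red) at 7 dpi (circles) and 21 dpi (diamonds, lighter), 1 value per group; a member without diamonds was not listed at 21 dpi. At 7 dpi the ApoE4 value lies to the right of the ApoE3 value in 42 of 43, and ANLN lies farthest to the right at both time points.

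Levels bear on how much weight the calls at 7 dpi can carry. Of genes with a mean FPKM under 5, 8.89% were called higher in ApoE4, and 4 of 7 members in that range were. Between 5 and 20 FPKM the shares were 6.07% of genes and 7 of 22 members, and between 20 and 100 FPKM they were 3.79% of genes and 6 of 13 members. The member above 100 FPKM, ANLN, was not called, and 2.65% of genes at that level were. Without ANLN, the summed FPKM of the other 42 members was 756 in ApoE3 and 966 in ApoE4. With a rule of at least 1.5-fold, 3 of 43 members stayed above it at 7 dpi, compared to 1.51% of all genes, which were AURKB, CENPF and TOP2A, named after their values were seen.

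At 21 dpi the members as a set followed all genes. Of the 25 listed, 24 had a higher FPKM in ApoE4, but so did 93.8% of all listed genes. The 1.3-fold rule was passed by 19 members in the direction of ApoE4, compared to 58.9% of all genes, and by 0 in the direction of ApoE3, compared to 2.01% of all genes. The members' median log2 ratio was 0.47, close to the 0.42 of all genes. Relative to the all-gene median, 4 of 25 members were at least 1.3-fold higher in ApoE4, compared to 8.06% of all genes, and 1, MCM2, was at least 1.3-fold lower, compared to 7.46%, a call that was lost when the values were rescaled to an equal sum. Relative to that median, 17 of 25 were above 0 and 8 below it. The 8 were MCM2, GINS2, TYMS, CCNA2, AURKB, CDCA8, TPX2 and ANLN, so the directions of these genes other than MCM2 turn with the scaling. Rescaling to an equal sum turned the same genes but CDCA8.

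The 4 members at least 1.3-fold above the shift at 21 dpi were CDK1, BIRC5, KIF23 and PRC1, among 14 mitotic members of the 25 listed. PRC1 had the largest ratio, 6.14 FPKM in ApoE3 and 21.4 in ApoE4, a log2 ratio of 1.65 and of 1.22 relative to the all-gene median. BIRC5 had a log2 ratio of 1.33 and KIF23 of 1.25, or 0.91 and 0.83 relative to that median. CDK1 had a log2 ratio of 0.996, or 0.57 relative to it. The same 4 were above 1.3-fold when the values were rescaled to an equal sum in each group, compared to 8.29% of all genes. MCM2 was the listed member below 0, with 8.54 and 9.99 FPKM at 7 dpi and 3.27 and 2.96 at 21 dpi, a log2 ratio of 0.21 and then -0.11. Relative to the all-gene median its ratio at 21 dpi was -0.53, and the rest of the MCM2 to MCM7 helicase that was listed did not share it, with 0.24 for MCM3, 0.02 for MCM4, 0.21 for MCM5 and 0.22 for MCM6.

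A member that was not listed at 21 dpi is not a member at 0. The 18 that were not listed included MKI67, E2F1, CCNB1, CCNB2, PLK1, BUB1, BUB1B, MCM7 and UBE2C, and also CENPE, CENPF, NDC80, KIF11, KIF20A, KIF4, NUSAP1, HMMR and CKAP2L. At 7 dpi these 18 had a median of 5.12 FPKM in ApoE3 and 7.11 in ApoE4, and the 25 listed at both had 14.4 and 17.1. Of all 14125 genes listed at 7 dpi, 10879 were listed again at 21 dpi, and of the members 25 of 43 (58.1%), a smaller share. The members not listed at 21 dpi were not all low, since MCM7 had 48.9 and 53.6 FPKM at 7 dpi and MKI67 had 29.6 and 36.0. The rule by which genes entered the table at each time point is not given in the sources used here.

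From 7 to 21 dpi cell cycle mRNA was lower in both genotypes. In ApoE3, all 25 members listed at both time points had a lower FPKM at 21 dpi, 23 of them by at least 1.3-fold, compared to 23.6% of all genes, and 0 were higher by that fold, compared to 31.3% of all genes. In ApoE4, 21 of 25 were lower by at least 1.3-fold, compared to 10.9% of all genes, and 1, ANLN, was higher by that fold, compared to 59.0% of all genes. The median log2 ratio of 21 to 7 dpi was -1.48 in ApoE3 and -1.37 in ApoE4. Relative to the all-gene median, 24 of 25 were at least 1.3-fold lower in ApoE3, compared to 27.7% of all genes, and 24 of 25 in ApoE4, compared to 28.6%, and 0 were higher, compared to 26.6% and 26.1%. The member outside both counts was ANLN. The medians relative to it were -1.57 in ApoE3 and -1.90 in ApoE4. These statements hold for both readings of the genotype columns, with the names of the genotypes exchanged. The same 4 groups enter the genotype and the time ratios, so they are not independent of each other.

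The median of the mitotic members was further below its 7 dpi level than that of the S phase members, with ranges that overlap, and the difference was not tested. The median log2 ratio over 14 mitotic members was -1.94 in ApoE3 and -1.89 in ApoE4, and over 11 S phase members it was -1.05 and -1.13. Relative to the all-gene median these were -2.03 and -2.42 for mitotic members and -1.14 and -1.66 for S phase members. PRC1 changed most in ApoE3, with a log2 ratio of -3.50, or 11.3-fold lower on the scale of FPKM plus 1, and had -2.06 in ApoE4. TOP2A changed most in ApoE4, with -3.13, and had -2.97 in ApoE3. CDK1 had -2.57 and -2.07, KIF23 had -2.70 and -1.99, and CDCA3 had -2.30 and -2.03. Nearer to 0 were the mitotic members RACGAP1, with -0.90 and -0.71, BIRC5, with -1.75 and -0.87, and AURKA, with -1.48 and -1.07.

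The members with time ratios nearest to 0 in both genotypes were ANLN, RRM1, MCM4, PCNA and CDT1. RRM1 had log2 ratios of 21 to 7 dpi of -0.32 in ApoE3 and -0.05 in ApoE4, PCNA, which also serves in DNA repair, had -0.72 and -0.33, MCM4 had -0.58 and -0.29, and CDT1 had -0.66 and -0.70. Relative to the all-gene median RRM1 had -0.41 and -0.58, PCNA -0.81 and -0.86, MCM4 -0.67 and -0.82 and CDT1 -0.75 and -1.23, so all 4 were lower in both genotypes. ANLN had -0.02 and 0.49, which relative to that median were -0.11 and -0.04. The 7 mature oligodendrocyte markers, of which 4 were listed at both time points, had medians of 0.61 in ApoE3 and 1.053 in ApoE4. Whether the level of ANLN follows oligodendrocytes was not tested. Without ANLN, the summed FPKM of the 24 other members listed at both time points went from 589 to 189.8 in ApoE3 and from 758 to 296 in ApoE4.

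**Figure D4:**
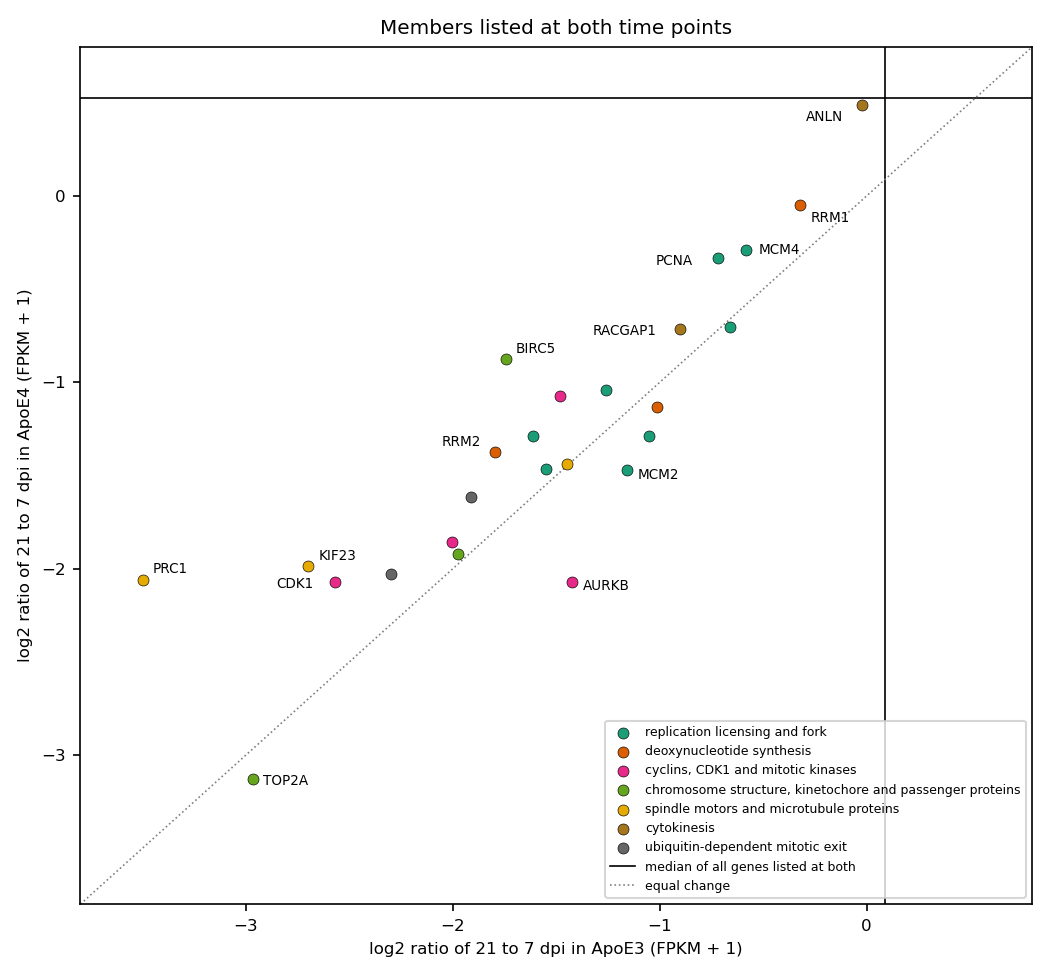
Log2 ratio of 21 to 7 dpi (FPKM plus 1) of the 25 members listed at both time points, in ApoE3 (horizontal axis) and ApoE4 (vertical axis), colored by role; solid lines mark the median of all genes and the dotted line equal change. All members but ANLN lie well below and left of the all-gene medians, and PRC1 and TOP2A lie farthest out.

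The ratio of genotypes moved between time points for single members in both directions. On the log2 scale, the ratio at 21 dpi minus that at 7 dpi was 1.44 for PRC1, 0.87 for BIRC5 and 0.72 for KIF23, and it was -0.65 for AURKB. The median of all genes at 21 dpi, 0.42, was not subtracted from these differences. Relative to the all-gene median, the ratios at 7 and then 21 dpi were 0.21 and 1.22 for PRC1 and 0.46 and 0.91 for BIRC5. They were 0.54 and 0.83 for KIF23 and 0.75 and -0.32 for AURKB, so the rises were smaller on that scale and the fall of AURKB larger. MKI67 and the other 17 members not listed at 21 dpi have no such value.

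Genes around the members in the same pathway were taken from 6 further lists, 147 genes in all, of which 135 were listed at 7 dpi and 80 at 21 dpi. Of the 135, 25 were at 7 dpi at least 1.3-fold higher in ApoE4, compared to 4.76% of all genes, and 4 at least 1.3-fold lower, compared to 3.78%, with a median log2 ratio of 0.20. These shares also stand beside the count of each list at 7 dpi. At 21 dpi, 47 of 80 were higher, near the 58.9% of all genes, and 1 lower, with a median of 0.43 beside the 0.42 of all genes. The 58.9% is the share to hold against the count of each list at 21 dpi. In ApoE3, 39 of 80 were lower at 21 than at 7 dpi by the rule, compared to 23.6% of all genes, and 12 higher, compared to 31.3%. In ApoE4 33 were lower, compared to 10.9%, and 21 higher, compared to 59.0%.

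Other DNA replication genes followed the members at 7 dpi, with 9 of 34 at least 1.3-fold higher in ApoE4, 0 lower and a median log2 ratio of 0.30. CDC6, which works with CDT1 in licensing, had 3.67 and 7.88 FPKM, and GINS1, of the GINS complex, had 3.23 and 6.80. UHRF1, which guides maintenance methylation of new DNA, had 29.7 and 46.4 FPKM, CHAF1B, a histone chaperone subunit, had 3.45 and 5.59, and POLE, the leading strand polymerase, had 2.04 and 3.25. At 21 dpi 14 of 23 were higher, near the share of all genes, with a median of 0.44, and the largest log2 ratios were 1.38 for CHAF1B, 1.33 for UHRF1, 1.02 for TIPIN, 0.81 for POLE and 0.76 for PRIM1. Over time the medians of this list were -0.09 in ApoE3 and 0.02 in ApoE4, and relative to the all-gene median -0.18 and -0.50, nearer to 0 than those of the members on either scale. UHRF1 had log2 ratios of -2.87 and -2.17 and POLA1 of -1.05 and -0.80, while DUT, which removes dUTP, had 0.85 and 1.23. In ApoE3 CHAF1B had -0.89 and RFC5 -0.88, and in ApoE4 TIPIN had 1.502 and RPA2 0.87.

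Other mitosis and cytokinesis genes had 11 of 57 at least 1.3-fold higher in ApoE4 at 7 dpi and 2 lower, with a median log2 ratio of 0.22. CDCA2, a chromatin-bound phosphatase subunit, had 18.7 and 33.4 FPKM, SAPCD2 had 6.24 and 11.0, and GTSE1, a microtubule protein of G2 and S phase, had 3.73 and 6.21. FAM83D had 3.08 and 5.02 FPKM and CENPN, of the inner kinetochore, had 2.06 and 3.49. At 21 dpi 19 of 28 were higher and 0 lower, with a median of 0.47 beside the 0.42 of all genes, and the largest log2 ratios were 1.56 for SPC25, 1.21 for SAPCD2, 0.91 for CENPM, 0.88 for CENPH and 0.87 for SPC24. From 7 to 21 dpi 21 of 28 were lower in ApoE3 and 20 in ApoE4, with medians of -1.02 and -0.74. SPC25, of the NDC80 complex, had log2 ratios of -2.66 and -1.38, CENPA, the centromeric histone, -2.48 and -1.86, KNSTRN -1.99 and -1.74 and ESPL1, separase, -1.79 and -1.38. NCAPG2 had -1.92 in ApoE3 and CCNF -1.60 in ApoE4.

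The control genes upstream of the cycle moved less. Of 8 listed G1 cyclins and kinases, CDK2 alone was called at 7 dpi, at 43.01 and 60.6 FPKM. At 21 dpi CCND2, with 27.2 and 43.03, and CCND1, with 39.0 and 59.8, were higher in ApoE4, with a list median of 0.29. CCND1 was lower at 21 than at 7 dpi in both genotypes, with log2 ratios of -1.07 and -0.81, and CCND2 in ApoE3 with -0.94. CCNE1, CDC25A and CCND3 were higher at 21 dpi in ApoE4, with 0.74, 0.43 and 0.39, below or near the shift of 0.53 in all genes but for CCNE1. The list medians over time were 0.07 in ApoE3 and 0.11 in ApoE4.

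Among 7 CDK inhibitors, which hold cells in G1, 1 was higher and 1 lower in ApoE4 at 7 dpi. CDKN2B, p15, had 1.88 and 3.40 FPKM at 7 dpi and 1.56 and 4.53 at 21 dpi, and CDKN1C, p57, had 189 and 139.5 at 7 dpi and was not listed later. CDKN2C, p18, which rises in dividing cells, had 15.8 and 20.7 FPKM at 7 dpi and 5.71 and 5.75 at 21 dpi, so it was lower over time in both genotypes, and CDKN1B, p27, was higher over time in ApoE3 with a log2 ratio of 0.39. The list median of genotype ratios was 0.13 at 7 dpi and 0.0087 at 21 dpi, and the medians over time were -0.11 and 0.02.

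RB, E2F and DREAM factors had 3 of 17 at least 1.3-fold higher in ApoE4 at 7 dpi, with a median log2 ratio of 0.12. MYBL2, the B-MYB activator of late cell cycle genes, had 3.56 and 6.13 FPKM, LIN9, of the DREAM core, 8.50 and 12.2, and E2F8, a late repressor, 5.72 and 7.995. At 21 dpi 7 of 12 were higher, near the share of all genes, with a median of 0.39. LIN9 had a log2 ratio of 1.23, E2F3 0.68 and LIN52 0.51, while TFDP1, with 0.46, and RB1, with 0.43, lay at the shift of all genes. FOXM1, an activator of mitotic genes, was the factor with the largest drop over time, from 4.43 to 0.813 FPKM in ApoE3 and from 4.91 to 1.27 in ApoE4. In ApoE3 RB1 had -0.74, LIN9 -0.68, E2F3 -0.54 and LIN37 0.73, and in ApoE4 LIN37 had 1.08, LIN52 0.90, E2F6 0.78 and TFDP2 0.69, with list medians over time of -0.0099 and 0.14.

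Of 12 DNA damage and repair genes listed at 7 dpi, 0 were higher in ApoE4 by the rule, and the list median was 0.13. At 21 dpi 4 of 6 were higher and 1 lower, with a median of 0.53. CHEK2, a checkpoint kinase, had a log2 ratio of 1.09, CCNG1 0.61 and BLM 0.44. Over time CHEK2 had -1.70 in ApoE3 and -0.77 in ApoE4, and CCNG1 -1.02 and -0.64. BRCA2 had 0.43 in ApoE3 and BLM had 0.43 in ApoE4, with list medians over time of -0.64 and -0.19.

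**Figure D5:**
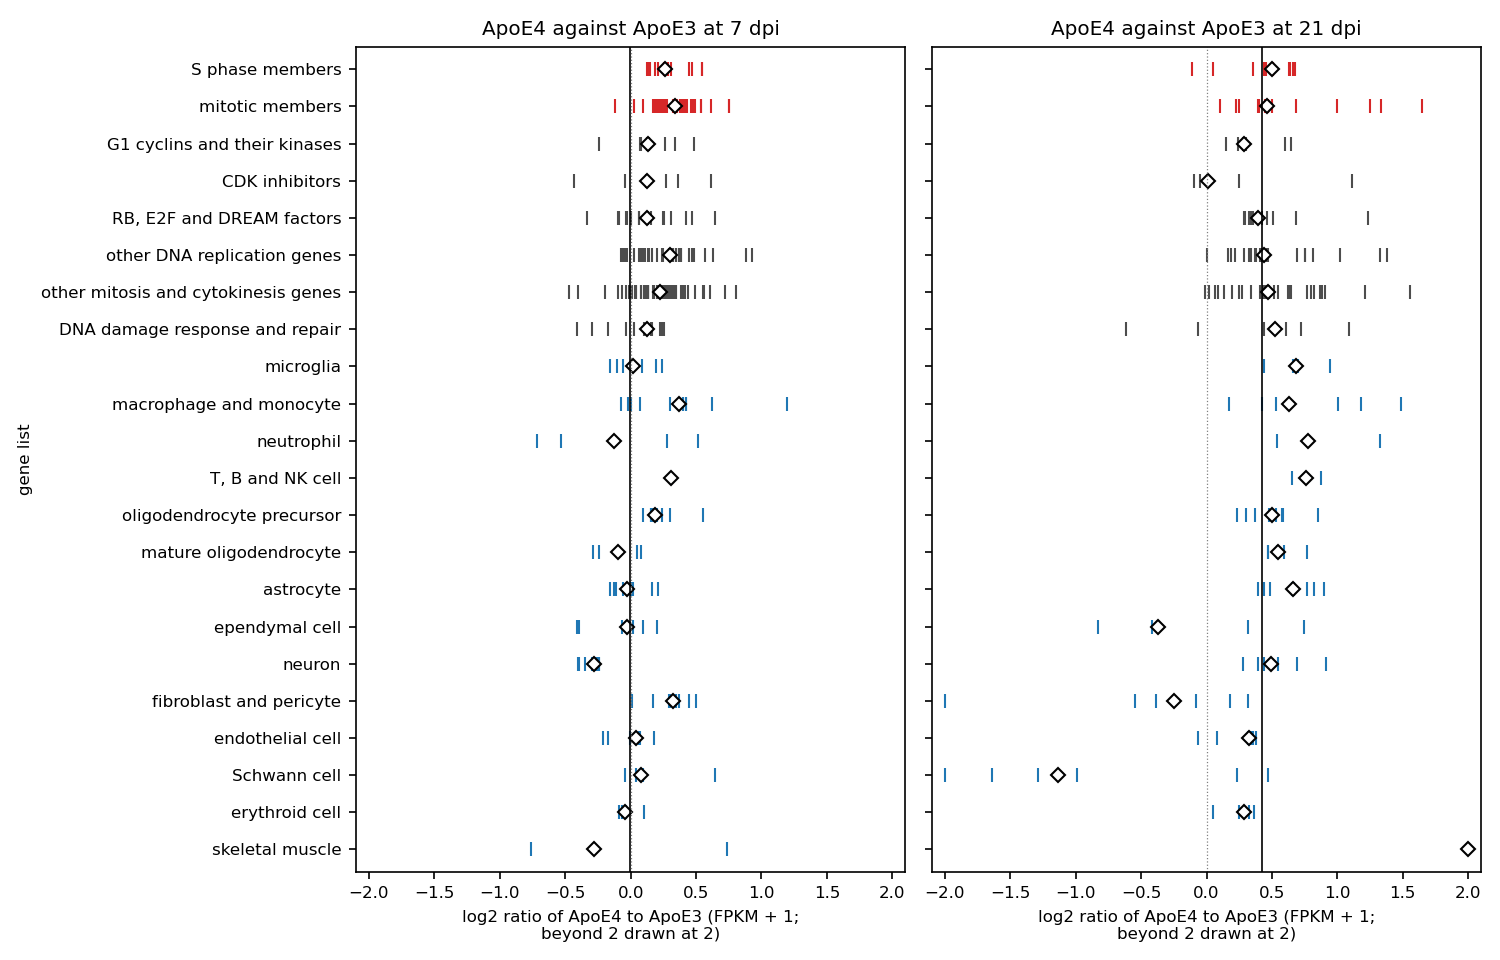
Log2 ratio of ApoE4 to ApoE3 (horizontal axis, FPKM plus 1) at 7 dpi (left) and 21 dpi (right), 1 tick per gene, for the members (red), the other pathway lists (grey) and the cell type lists (blue); diamonds mark list medians and the solid line that of all genes. The S phase and mitotic members, the other DNA replication genes and the macrophage and fibroblast lists lie at 7 dpi to the right of that line and the neuron list to the left.

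Markers of several cell types moved along with the members at 7 dpi, and their part in the result was not tested. The counts of every cell type list stand beside the shares of all genes past the rule. At 7 dpi 4.76% of all genes were higher in ApoE4 and 3.78% lower. At 21 dpi 58.9% were higher and 2.01% lower, and the median of all genes was 0.42. From 7 to 21 dpi 23.6% of all genes were lower in ApoE3 and 10.9% in ApoE4. Genes typical of spinal cord were abundant, with 3366 and 2545 FPKM of the synaptic protein SNAP25, 120571 and 127575 of the myelin protein MBP and 12395 and 12386 of the astrocyte filament GFAP at 7 dpi. Of 12 macrophage and monocyte markers, 11 were listed at 7 dpi and 5 of these were at least 1.3-fold higher in ApoE4, with a median log2 ratio of 0.37. Their summed FPKM was 7215 in ApoE3 and 9494 in ApoE4 at 7 dpi. LYZ2, lysozyme, was the most abundant with 4522 and 6076 FPKM, CD68 had 1309 and 1696, and ARG1, of alternatively activated macrophages, had 16.5 and 39.0. Not all differed, since ADGRE1 had 111 and 109.6 FPKM, MRC1 2.02 and 1.88, and the monocyte markers CCR2 12.7 and 12.8 and LY6C2 37.0 and 38.9, none of which passed the rule. At 21 dpi 7 were listed, with a median log2 ratio of 0.63 and a sum of 751 and 1086, and LYZ2 had 212 and 426. That sum includes FN1, fibronectin, with 454 and 511 FPKM, which was not listed at 7 dpi. Over the 6 markers listed at both time points, the sums were 5838 and 7705 at 7 dpi and 296 and 575 at 21 dpi. From 7 to 21 dpi all 6 listed at both were lower, with medians of -3.96 in ApoE3 and -3.40 in ApoE4, further than the members. None of the listed macrophage markers was at 0.

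Fibroblast and pericyte markers also had a median above 0 between genotypes at 7 dpi and below 0 over time, but their median between genotypes at 21 dpi was below 0. All 8 were listed at 7 dpi and higher by some amount in ApoE4, 2 of them by at least 1.3-fold, with a median log2 ratio of 0.33 and sums of 741 and 927 FPKM. COL1A1, the most abundant, had 212 and 269.96 FPKM at 7 dpi and 2.44 and 2.27 at 21 dpi. At 21 dpi the median of 7 was -0.25, 3 were lower in ApoE4 and 0 higher, and the sums were 189 and 158, and over time the medians were -2.02 and -3.07, with 5 of 7 lower and 1, DCN, higher in ApoE3 and 6 of 7 lower in ApoE4.

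Oligodendrocyte precursor markers, of the cells that divide in the resting cord, were all listed at both time points. They had a median log2 ratio of 0.18 at 7 dpi and 0.50 at 21 dpi, with 1 and 5 of 8 at least 1.3-fold higher in ApoE4 and 0 lower. Of all genes, 4.76% were higher by that fold at 7 dpi and 58.9% at 21 dpi, so the later count was near that share. Relative to the all-gene median, these markers had a median of 0.08 at 21 dpi. Their sums were 559 and 641 FPKM at 7 dpi and 390.4 and 555 at 21 dpi, and the medians over time were -0.10 in ApoE3 and -0.13 in ApoE4, nearer to 0 than those of the members. Single precursor markers were lower at 21 dpi all the same. VCAN, the most abundant at 7 dpi, had 155 and 183 FPKM and later 40.5 and 60.9, and PDGFRA had 85.5 and 95.4 and later 42.0 and 58.8.

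Microglia markers were near level at 7 dpi, with a median of 0.02 over 6 of 9 listed and 0 called. At 21 dpi all 4 listed were higher in ApoE4, with a median of 0.68 and sums of 222 and 389. All 8 astrocyte markers were listed, with medians of -0.03 at 7 dpi and 0.66 at 21 dpi, 0 and 8 called, and sums of 17594 and 17236 and then 10524 and 19217 FPKM. Neuron markers were lower in ApoE4 at 7 dpi, all 8 by some amount and 2 by at least 1.3-fold, with a median of -0.28 and sums of 5724 and 4476, and at 21 dpi 6 were listed with a median of 0.49 and sums of 7693 and 11390. For mature oligodendrocytes, of 7 markers 4 were listed at 7 dpi with a median of -0.10 and 6 at 21 dpi with 0.55, and MBP led both. At 21 dpi 58.9% of all genes were called higher in ApoE4. Relative to the all-gene median, the 21 dpi medians were 0.26 for microglia and 0.23 for astrocytes. They were 0.07 for neurons and 0.12 for mature oligodendrocytes.

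The other cell type lists held few listed genes or moved apart from the members at 7 dpi. Of 9 neutrophil markers 4 were listed at 7 dpi, with a median of -0.13, 1 higher and 2 lower, of which S100A9 had 14.1 and 8.19 FPKM, and 3 at 21 dpi with 0.77, and CSF3R led with 485 and 589 FPKM at 7 dpi. Of 13 markers of T, B and NK cells, CD79B was listed at 7 dpi, with 2.46 and 3.28 FPKM, and 2 were listed at 21 dpi with a median of 0.76. Endothelial markers had medians of 0.04 over 7 at 7 dpi and 0.33 over 6 at 21 dpi, led by FLT1, and erythroid markers had -0.04 over 5 and 0.29 over 4, led by globin genes. Ependymal markers had -0.02 over 6 and -0.37 over 5, with FOXJ1 at 36.4 and 36.8 FPKM at 7 dpi. Of 7 Schwann cell markers, which share MBP and SOX10 with other lists, 5 were listed at 7 dpi with a median of 0.08 and 6 at 21 dpi with -1.14. Of 5 skeletal muscle markers 3 were listed at 7 dpi with a median of -0.28 and 4 at 21 dpi with 4.37, where TNNT3 had 22.5 and 515 FPKM and MYH4 was at 0 in ApoE3. The 21 dpi segments thus differed between genotypes in muscle and peripheral nerve markers, and the part of these tissues in the 4 ratios above the shift at 21 dpi was not tested.

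Some member values are uncertain because reads could belong to another gene. RefSeq (GRCm38.p6) names pseudogene copies of PCNA, TYMS, CCNB1, CCNB2 and KIF4, between which reads could be split. In GENCODE vM21 the exons of 11 of 43 members overlap exons of another gene on the opposite strand, and the library kit does not mark the strand. Among them are PRC1 with Rccd1, MCM7 with Ap4m1 and Cops6, CCNA2 with Exosc9, CDC20 with Elovl1 and KIF4 with Pdzd11. UBE2C overlaps Tnnc2, a troponin of fast muscle.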

How the data were processed

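The authors deposited FPKM plus 1 from Cuffdiff for lesion segments, 1 value per gene, genotype and time point, and 1 was subtracted here. The submitters' processing notes name STAR 2.5.4b, Bowtie2 2.1.10, SAMtools 0.1.7 and Cuffdiff 1.3.0, and the genome build is not given in the sources used here. By the paper's methods libraries were down-sampled to equal depth, N = 3 mice entered each group, and 1 replicate of an unnamed group aligned less well. FPKM does not keep read numbers, and error from counting cannot be given. Beside the values, the authors' p-value, q-value, fold change, log2 fold change and significance call are in that table, and their differential genes in another. The direction of the fold change helped to assign the genotypes to the value columns. None of these columns entered the ratios or calls given here. Value columns without a group numbered 0.

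Rows name the comparison as ApoE3 versus ApoE4 while column numbers give the opposite order; the first reading was used. Symbols on 2 rows were summed, and none was a member. Log2 ratios used a pseudocount of 1, with a fold of 1.3 from the methods. No test was run. Members and lists were chosen with earlier results of these data known. The named genes were members at least 1.3-fold apart between genotypes at either time point, the most abundant of each role and 6 set by name; of the other lists, up to 5 largest ratios with a mean FPKM of at least 1, and leading markers. Alternatives were a pseudocount of 0.1, centring on the median of all genes, rescaling to an equal sum over genes listed at both time points, a mean FPKM of at least 1 and a fold of 1.5. Reading the genotypes by column number was chosen after seeing the data. Python 3.11.15, numpy 2.4.6, pandas 2.3.3 and matplotlib 3.10.9 were used, and counts were tested on simulated data.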

Additional observations from a re-analysis of the deposited data

Results flagged for a closer look

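MCM2 had a log2 ratio of ApoE4 to ApoE3 above 0 at 7 dpi, 0.21, and below 0 at 21 dpi, -0.11, and the ratio at 21 dpi minus that at 7 dpi was -0.31. ANLN had the opposite order, -0.12 at 7 dpi and 0.40 at 21 dpi, a difference of 0.51, which turned to -0.03 at 21 dpi relative to the median of all genes. The ratio of 21 to 7 dpi of ANLN was below 0 in ApoE3, -0.02, and above 0 in ApoE4, 0.49, which is the same difference of 0.51. They were flagged because the sign of the ratio differed between time points or genotypes, and no difference was tested.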

How the results depend on the processing

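Medians were called unchanged if they moved by less than 0.1 on the log2 scale and counts if within 1.5 times, and 40 values were unchanged. The cause of a change was not tested unless the setting makes it. With a fold of 1.5, which is stricter by construction, 3 members were higher in ApoE4 at 7 dpi (17 in the main result) and 9 of 25 at 21 dpi (19), where 23.0% of all genes were. With that fold 0 were higher at 21 than at 7 dpi in ApoE4 (1), compared to 46.2% of all genes. With the median of all genes subtracted, 4 members were higher in ApoE4 at 21 dpi and 1 lower (0), with a median of 0.046 (0.47), and over time in ApoE4 0 were higher with a median of -1.90 (-1.37). Rescaled to an equal sum, 4 were higher in ApoE4 at 21 dpi, compared to 8.29% of all genes, with a median of 0.14. On that scale the median over time was -1.67 in ApoE3 (-1.48) and -1.89 in ApoE4. There 0 were higher over time in ApoE4, compared to 18.7% of all genes. With a pseudocount of 0.1 the medians were 0.66 at 21 dpi, -1.72 over time in ApoE3 and -1.51 in ApoE4. With the genotypes read by column number, an alternative chosen after seeing the data, directions turn by construction: 0 higher and 17 lower at 7 dpi with a median of -0.29, and 0 higher and 19 lower at 21 dpi with a median of -0.47. No paired analysis was possible because each group has 1 value. The values have no replicate check, time points were normalized separately, and bulk tissue does not separate cell numbers from RNA per cell.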
